A study of Rattus norvegicus with 12 samples.

Results

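Rasd1, a small GTPase of the Ras family first found as a dexamethasone-induced transcript, was described together with 8 genes of the glucocorticoid response: the targets Fkbp5, Tsc22d3, Sgk1, Zbtb16, Klf9 and Mt2A, the receptor Nr3c1 and the hormone-activating enzyme Hsd11b1. Rasd1 was chosen because its level was lower in both atria after an aorto-caval shunt, so its shunt differences are given as a description with no test. The other genes were chosen as known glucocorticoid targets or regulators. Members were all probe sets that the array annotation assigned to 1 of these symbols alone. That gave 12 of the 31042 probe sets tested, for 8 of the 9 genes. Zbtb16 was not analysed here.

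The animals were male Sprague-Dawley rats, killed by decapitation 28 days after an aorto-caval shunt, a surgical link between artery and vein that makes the heart pump extra volume, or a sham operation. Right and left atrial appendages were hybridised to 1-colour Affymetrix arrays, 3 arrays in each of 4 groups: the right and the left atrium of sham animals, and the same chambers of shunt animals. Each array held RNA pooled from 2 tissues, and the labels name no drug or hormone for any group. Values are log2 expression, on which a difference of 1 is a doubling, and p-values measure the spread between these pools. The tissue entry of the labels names ventricles besides atria.

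Glucocorticoids act through the receptor encoded by Nr3c1, which waits in the cytoplasm bound to heat shock chaperones and co-chaperones and, once it binds hormone, enters the nucleus and switches on a set of target genes. Inside cells the enzyme encoded by Hsd11b1 turns inactive 11-keto steroid back into active hormone, while the FKBP51 protein made from Fkbp5, itself an induced target, lowers the receptor's affinity for hormone. Rasd1 has been reported to modulate hormone secretion by the volume-overloaded heart, whose atria release natriuretic peptides.

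The proximal promoters of Rasd1 and Mt2A are shown because Rasd1 was chosen for its lower level after shunt and Mt2A was the only other member that passed a shunt test. They are the 250 bases before the annotated start, from RefSeq with build GRCr8, 5′ to 3′ on the strand of the gene: chr10:45267683-45267932 (minus strand) for Rasd1 and chr19:10838709-10838958 (minus strand) for Mt2A. Capitals mark a half-site of the cyclic AMP response element (TGACG or CGTCA) in Rasd1, and the core of the metal response element (TGCGCNC or TGCACNC, or the same letters on the other strand) in Mt2A.
Rasd1: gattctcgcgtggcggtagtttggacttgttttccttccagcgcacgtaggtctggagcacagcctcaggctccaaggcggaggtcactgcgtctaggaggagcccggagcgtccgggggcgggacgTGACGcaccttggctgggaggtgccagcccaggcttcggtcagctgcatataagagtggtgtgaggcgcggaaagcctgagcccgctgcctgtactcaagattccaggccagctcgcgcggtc
Mt2A: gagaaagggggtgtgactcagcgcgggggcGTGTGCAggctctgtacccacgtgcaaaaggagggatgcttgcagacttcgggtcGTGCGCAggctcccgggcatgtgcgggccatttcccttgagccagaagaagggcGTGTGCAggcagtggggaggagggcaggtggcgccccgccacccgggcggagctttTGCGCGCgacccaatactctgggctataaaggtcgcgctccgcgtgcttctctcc

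RefSeq windows of 300 bases, 250 before and 50 after the start, were found for 7 of the 8 measured genes, 12 windows in all. The glucocorticoid response element half-site (AGAACA or TGTTCT) occurred in none of the 12 windows, against 20.7% of all 33469 windows of that length. The cyclic AMP half-site occurred once in the Rasd1 window, once in that of Klf9 and at 2 places in 1 window of Tsc22d3, and in 21.2% of all windows. Mt2A had 4 matches to the metal response element core, and 1 window each of Nr3c1 and Tsc22d3 had 1. That core occurred in 24.2% of all windows. A match is a run of letters and no measured site, and a window without one says nothing of sites farther away.

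Left and right arrays separated on the first principal component of the whole table, which held 60.5% of the variance. Replicate 3 of the left shunt group lay far from its 2 partners, at -26.7 on the second component against 14.95 and 13.62, and array weights gave it 0.368 against 0.856 to 1.38 for the others. Adipocyte markers were high on that array (mean log2 level of 9 of 10 listed genes 8.08, against 6.96 and 7.43 on the other left shunt arrays). Some of the results that rest on it are given without it too. The arrays carried the atrial markers Nppa (group means 14.38 to 14.43) and Myl7 (14.13 to 14.25). The ventricular myosin light chain Myl2 stood at 10.94 ± 0.05 in the right atrium sham arrays and 5.26 ± 0.22 in the left (SD, n = 3).

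Rasd1 was lower on every shunt array than on every sham array. Its log2 values were 7.40, 7.49 and 7.59 in right atrium sham and 5.98, 6.51 and 6.47 in right atrium shunt. In the left atrium they were 7.43, 7.66 and 7.60 in sham and 6.0, 6.13 and 6.0 in shunt. The 2 sham groups lay within the same narrow range, and the lowest sham array was 7.40 while the highest shunt array was 6.51. The difference was -1.17 ± 0.12 in the right atrium (2.25-fold lower) and -1.52 ± 0.12 in the left (2.86-fold lower; SE of the limma fit, n = 3 arrays per group). With each array left out in turn the right difference ran from -1.26 to -1.0, and the left from -1.59 to -1.47. These ranges describe the values for which Rasd1 was chosen and are no support for its fall.

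Within the right shunt group, Rasd1 was lowest on replicate 1, at 5.98. The array also had the lowest mean level of the 7 ventricular muscle markers in its group, 7.45 against 8.26 and 8.21, while right sham arrays lay between 7.07 and 7.23. The left shunt arrays had 6.12 to 6.42 and left sham arrays 5.65 to 5.92 for the same markers. Other marker lists were at an extreme of the right shunt group on replicate 1 too. Atrial (10.8) and pan-cardiomyocyte (13.34) markers were lowest there. Endothelial (9.04), neuronal and Schwann cell (4.62) markers and immediate early genes (6.71) were highest. Whether tissue makeup had a part in the Rasd1 values was not tested. In bulk tissue, fewer cells of a type and less RNA per cell cannot be told apart.

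Between the chambers of sham animals Rasd1 differed little: left minus right was 0.07 ± 0.12. In shunt animals the left was lower by 0.27 ± 0.12. Both values are descriptions only, since the choice of Rasd1 used the arrays of all 4 groups. The left shunt arrays spanned 6.0 to 6.13 and the right ones 5.98 to 6.51, so the chambers overlapped.

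**Figure D1:**
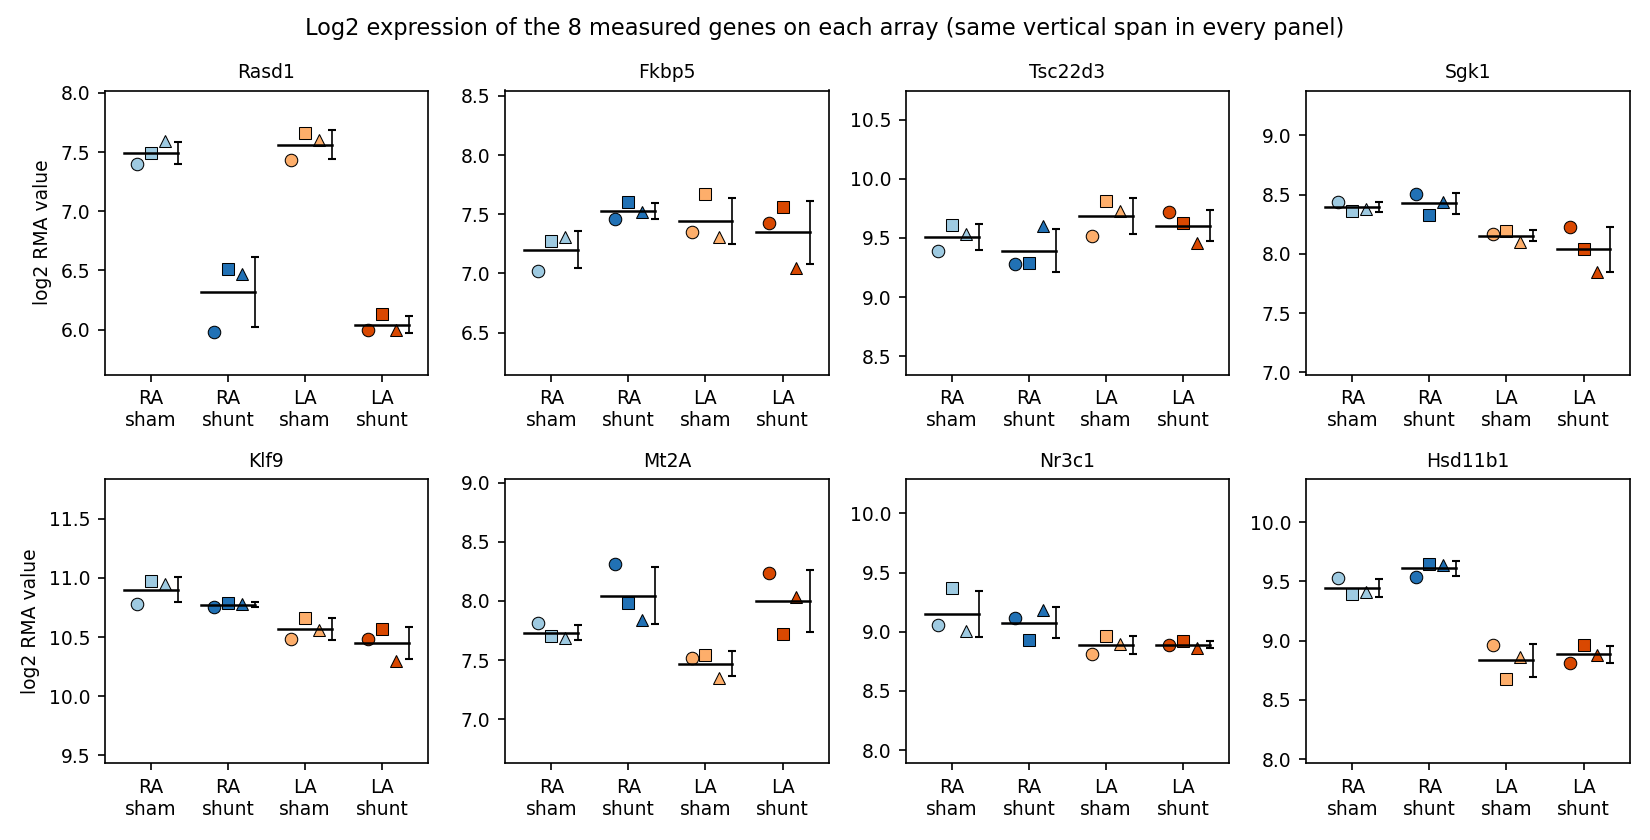
Log2 expression of the 8 measured genes (vertical axis, the same span in each panel) on each of 12 arrays, grouped as right (RA) and left atrium (LA), sham and shunt. Circles, squares and triangles are replicates 1, 2 and 3, the bar is the group mean and the whisker 1 SD. Rasd1 shunt arrays lie at or below 6.51 and sham arrays at or above 7.40, while sham and shunt lie close together for Tsc22d3, Sgk1, Klf9 and Nr3c1.

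Of the 7 other genes, none passed the test in the right atrium or in the left taken alone, and 1, Mt2A, passed when the shunt difference was averaged over both. A call here means a limma p-value under 0.05 after Benjamini-Hochberg adjustment over all 31042 probe sets. The share of all probe sets called was 2.97% in the right atrium, 0.751% in the left and 3.86% for the average. Counted per gene, as these members are, it was 3.97%, 0.935% and 5.25%, so 0 of 7, 0 of 7 and 1 of 7 are close to the background. By direction, 1.90% of all probe sets were called higher and 1.07% lower in the right atrium, 0.283% and 0.467% in the left, and 2.31% and 1.55% for the average. In the right atrium that is 591 higher and 332 lower, and after a further quantile normalization 352 and 312. At an unadjusted p under 0.05, 2 of the 7 passed in the right atrium (Fkbp5 and Mt2A) and 1 in the left (Mt2A), beside 19.7% and 13.6% of all probe sets at that threshold. Over all 11 probe sets other than that of Rasd1, differences ran from -0.39 to 0.43 in the right atrium and from -0.41 to 0.53 in the left.

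Mt2A encodes a metallothionein, a small cysteine-rich protein that binds zinc and copper and is induced by metals as well as by glucocorticoids. Right atrium values were 7.81, 7.70 and 7.69 in sham and 8.31, 7.98 and 7.84 in shunt. Left atrium values were 7.52, 7.54 and 7.35 in sham and 8.24, 7.72 and 8.03 in shunt. Every shunt array was above every sham array of its own chamber, as was true in either direction of 28.4% of all probe sets in the right atrium and 16.9% in the left. Averaged over the chambers Mt2A rose by 0.42 ± 0.10 (1.34-fold, limma adjusted p = 0.0293). In the right atrium alone the difference was 0.31 ± 0.14 (adjusted p = 0.224), and in the left 0.53 ± 0.14 (adjusted p = 0.102). The call of the average was lost when any 1 of 8 arrays was left out (right shunt replicates 1 and 2, right sham 2 and 3, left shunt 1, left sham 1, 2 and 3), with adjusted p up to 0.0743 and a difference from 0.36 to 0.49. Across the 12 arrays Mt2A ran opposite to Rasd1 (Pearson r = -0.82), over arrays that share 4 groups.

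Mt1, another metallothionein gene, read 5.31, 5.34 and 5.24 in right sham, 5.43, 5.32 and 5.43 in right shunt, 5.55, 5.92 and 5.94 in left sham and 5.48, 5.30 and 5.50 in left shunt. Its shunt difference was 0.10 ± 0.10 in the right atrium (limma adjusted p = 0.65) and -0.37 ± 0.10 in the left (adjusted p = 0.125).

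Fkbp5 was read by 2 probe sets. The brighter gave 7.02, 7.27 and 7.31 in right sham against 7.46, 7.60 and 7.52 in right shunt. Its right groups did not overlap, as was true of 28.4% of all probe sets. Its right difference was 0.33 ± 0.13 (limma adjusted p = 0.202) and its left one -0.10 ± 0.13 (adjusted p = 0.801). The dimmer probe set read 4.74, 4.76 and 4.68 in right sham and 5.0, 5.24 and 5.23 in right shunt. Both probe sets were higher on all right shunt arrays than on the sham ones, by 0.33 and 0.43, and neither passed. The dimmer one did pass when left shunt replicate 3 was left out (limma adjusted p = 0.0141), with array weights and in a fit of the right arrays alone.

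Of the other induced targets, Tsc22d3 encodes GILZ, a leucine zipper protein that restrains inflammatory signalling. It read 9.39, 9.61 and 9.53 in right sham, 9.28, 9.29 and 9.60 in right shunt, 9.52, 9.81 and 9.73 in left sham and 9.72, 9.63 and 9.46 in left shunt. Sham and shunt arrays overlapped in both chambers, and the differences were -0.12 ± 0.11 and -0.09 ± 0.11 (95% intervals -0.36 to 0.12 and -0.33 to 0.16). Sgk1, a kinase that raises sodium channel activity, read 8.44, 8.36 and 8.38 in right sham and 8.51, 8.33 and 8.44 in right shunt. In the left atrium Sgk1 read 8.17, 8.19 and 8.10 in sham and 8.23, 8.04 and 7.85 in shunt. Shunt minus sham was 0.03 ± 0.09 in the right (95% interval -0.17 to 0.23) and -0.11 ± 0.09 in the left (-0.31 to 0.09). The intervals of these 2 genes leave out a change of the size seen for Rasd1, which was chosen for its fall. They still take in smaller changes of either sign.

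Klf9, a zinc finger transcription factor, was the brightest of the set on its main probe set. Its values were 10.78, 10.97 and 10.95 in right sham, 10.75, 10.79 and 10.78 in right shunt, 10.48, 10.66 and 10.56 in left sham and 10.48, 10.57 and 10.30 in left shunt. The shunt difference was -0.12 ± 0.09 in each atrium (limma adjusted p = 0.47 and 0.606). Averaged over the chambers it was -0.12 ± 0.06 (adjusted p = 0.337).

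The receptor Nr3c1 gave 9.06, 9.37 and 9.01 in right sham, 9.12, 8.93 and 9.18 in right shunt, 8.81, 8.96 and 8.90 in left sham and 8.89, 8.92 and 8.86 in left shunt. The groups overlapped, with a shunt difference of -0.07 ± 0.10 in the right atrium (95% interval -0.28 to 0.14) and 0.00 ± 0.10 in the left (-0.21 to 0.22). Hsd11b1 gave 9.53, 9.39 and 9.41 in right sham and 9.54, 9.65 and 9.64 in right shunt. Its right groups did not overlap, as was true of 28.4% of all probe sets, and differed by 0.17 ± 0.08 (limma adjusted p = 0.297). In the left atrium it gave 8.96, 8.68 and 8.86 in sham and 8.81, 8.96 and 8.88 in shunt, a difference of 0.05 ± 0.08 (adjusted p = 0.827). Neither the receptor nor the enzyme passed in any shunt comparison.

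**Figure D2:**
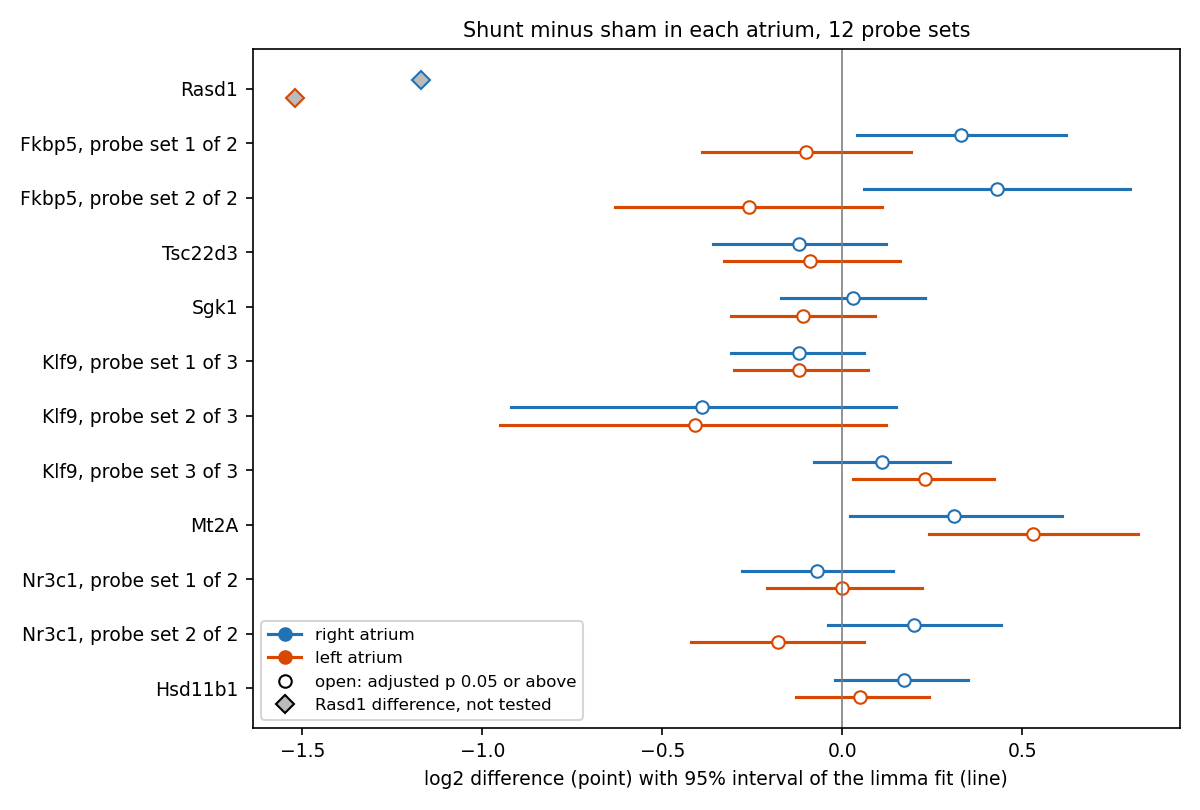
Shunt minus sham (horizontal axis, log2) in the right and the left atrium for all 12 probe sets, numbered from the brightest where a gene has several. Points are differences, lines 95% intervals of the limma fit, open points did not pass, and the Rasd1 diamonds carry no interval because they were not tested. Rasd1 stands at -1.17 and -1.52, and every other point lies between -0.41 and 0.53.

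No member passed a test of whether the shunt effect differs between the chambers. The left effect minus the right was tested as an interaction term, and 0 of the 11 probe sets other than that of Rasd1 passed by limma, against 0.0258% of all probe sets (0.0226% higher and 0.00322% lower). Of the 11, 3 had an unadjusted p under 0.05, as did 14.4% of all probe sets. The largest was the dimmer Fkbp5 probe set, at -0.69 ± 0.24 (adjusted p = 0.242), and with left shunt replicate 3 left out it became -0.43 (adjusted p = 0.202). For Rasd1 the left effect was larger in size by 0.35 ± 0.18, given without a test.

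Hsd11b1, Klf9 and Sgk1 differed between the chambers. Hsd11b1 was lower in the left atrium, by 0.61 ± 0.08 in sham (1.53-fold, limma adjusted p = 0.000129) and by 0.72 ± 0.08 in shunt animals (1.65-fold, adjusted p = 5.59e-05). Its chambers did not overlap in either condition, as was true of 50.4% of all probe sets in sham and 48.9% in shunt. Klf9 on its main probe set was lower in the left by 0.33 ± 0.09 in sham (adjusted p = 0.00925) and by 0.32 ± 0.09 in shunt (adjusted p = 0.0108). Sgk1 was lower in the left of shunt animals, by 0.38 ± 0.09 (adjusted p = 0.00612). In sham animals Sgk1 differed by -0.24 ± 0.09 (adjusted p = 0.0565), and it passed there without left shunt replicates 1 or 3. The main Nr3c1 probe set was at -0.26 ± 0.10 in sham (adjusted p = 0.0595), and passed without right sham replicate 3.

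Over 1 probe set per gene, 2 of the 7 members other than Rasd1 passed between the chambers in sham and 3 in shunt, all lower in the left. The share of all probe sets called was 36.1% in sham (20.1% higher and 16.1% lower) and 37.7% in shunt (20.2% and 17.4%). Counted per gene it was 37.6% and 40.5%, so these counts are close to the background. The medians over all probe sets were 0.02 and 0.05. The 2 and 3 calls stood with each of the 12 arrays left out in turn. Over all 11 probe sets other than that of Rasd1, 3 were called higher and 2 lower in sham, and 3 higher and 3 lower in shunt. Klf9 was lower in the left on its main probe set only, as described below. Ventricular markers were lower in the left too (4 of 7 in sham, median -0.90), with a log2 summed level of 9.33 to 9.89 in left sham and 11.78 to 11.89 in right sham. Macrophage markers were lower in the left for 4 of 11 in sham and 7 of 11 in shunt (medians -0.16 and -0.52). Smooth muscle and pericyte markers were higher in left sham for 5 of 7 and mesothelial markers for 3 of 5. The part of tissue makeup in these differences was not tested.

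**Figure D3:**
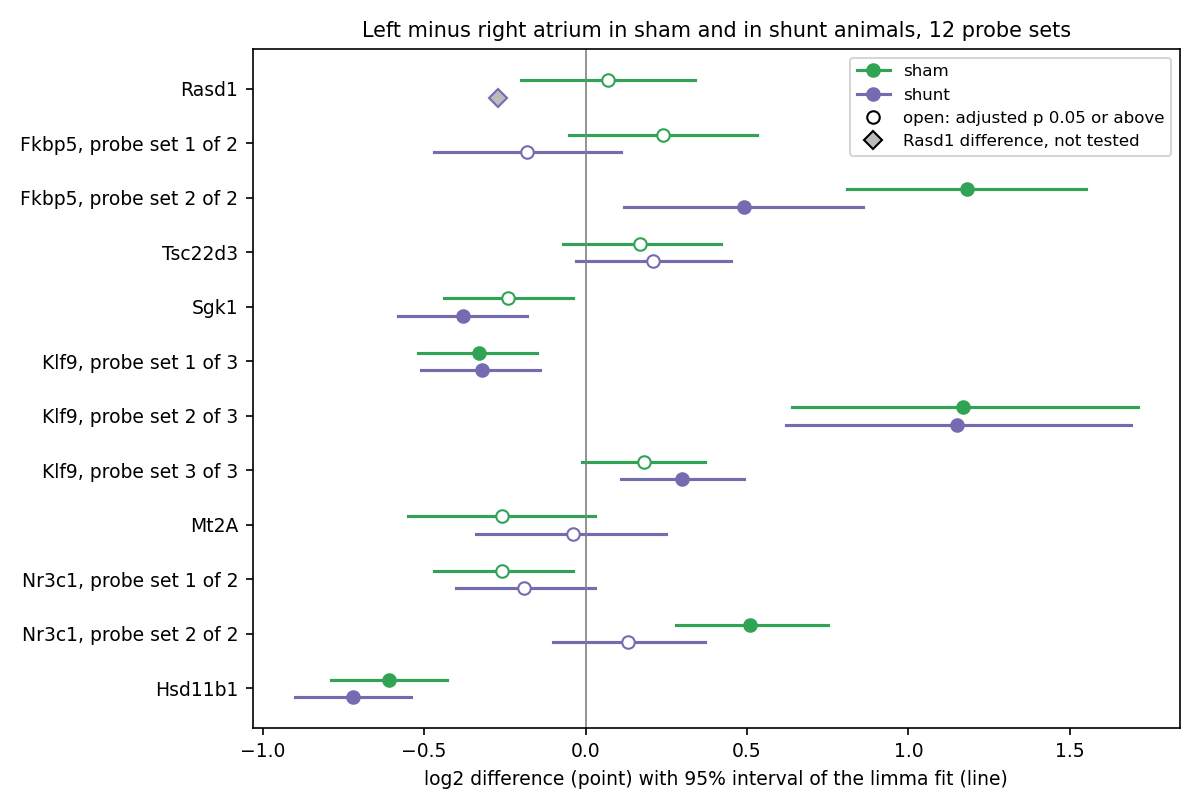
Left minus right atrium (horizontal axis, log2) in sham and in shunt animals for all 12 probe sets. Filled points passed the limma test, lines are 95% intervals, and the diamond marks the Rasd1 difference in shunt animals, which was not tested. The Rasd1 difference in sham animals is a description too, though its interval is drawn. Hsd11b1 lies at -0.61 and -0.72, while the second probe sets of Klf9 and Fkbp5 lie to the right of 0 and their first ones do not pass there.

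Probe sets of the same gene did not give the same chamber difference. The second Klf9 probe set was higher in the left, by 1.17 ± 0.25 in sham (limma adjusted p = 0.0026) and 1.15 ± 0.25 in shunt (adjusted p = 0.00314), opposite to the main one. It read 6.38, 6.12 and 6.16 in right sham, 5.74, 5.84 and 5.92 in right shunt, 7.44, 7.44 and 7.30 in left sham and 7.55, 7.22 and 6.18 in left shunt. Left shunt replicate 3, the array that differed most from its group, was the low one, and without it the left shunt difference went from -0.41 to -0.01. The third and dimmest Klf9 probe set was higher in the left of shunt animals by 0.30 ± 0.09 (adjusted p = 0.0192). That call was lost without right shunt replicate 1 or left shunt replicate 2. Over the 12 arrays the main Klf9 probe set correlated with the others at -0.55 and -0.81, so a direction for Klf9 between the chambers depends on the probe set.

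The second Fkbp5 probe set read 5.98, 5.84 and 5.91 in left sham and 5.82, 6.01 and 5.12 in left shunt. It was higher in the left by 1.18 ± 0.17 in sham (limma adjusted p = 0.000185), where the main probe set differed by 0.24 ± 0.13 (adjusted p = 0.178). In shunt animals it differed by 0.49 ± 0.17 (adjusted p = 0.0378), a call lost without any 1 of the 3 right shunt arrays or left shunt replicates 1 or 2, while without left shunt replicate 3 the difference was 0.76. The dim Nr3c1 probe set was higher in the left of sham animals by 0.51 ± 0.11 (adjusted p = 0.00284), against -0.26 for the main one. The 2 Nr3c1 probe sets correlated at -0.7 and the 2 of Fkbp5 at 0.49. The dimmer probe sets of these genes averaged 3.7 to 6.61 over the arrays, beside a median of 5.46 over all probe sets. They were annotated from other transcript records than the main ones, and which transcript forms each reads was not tested.

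**Figure D4:**
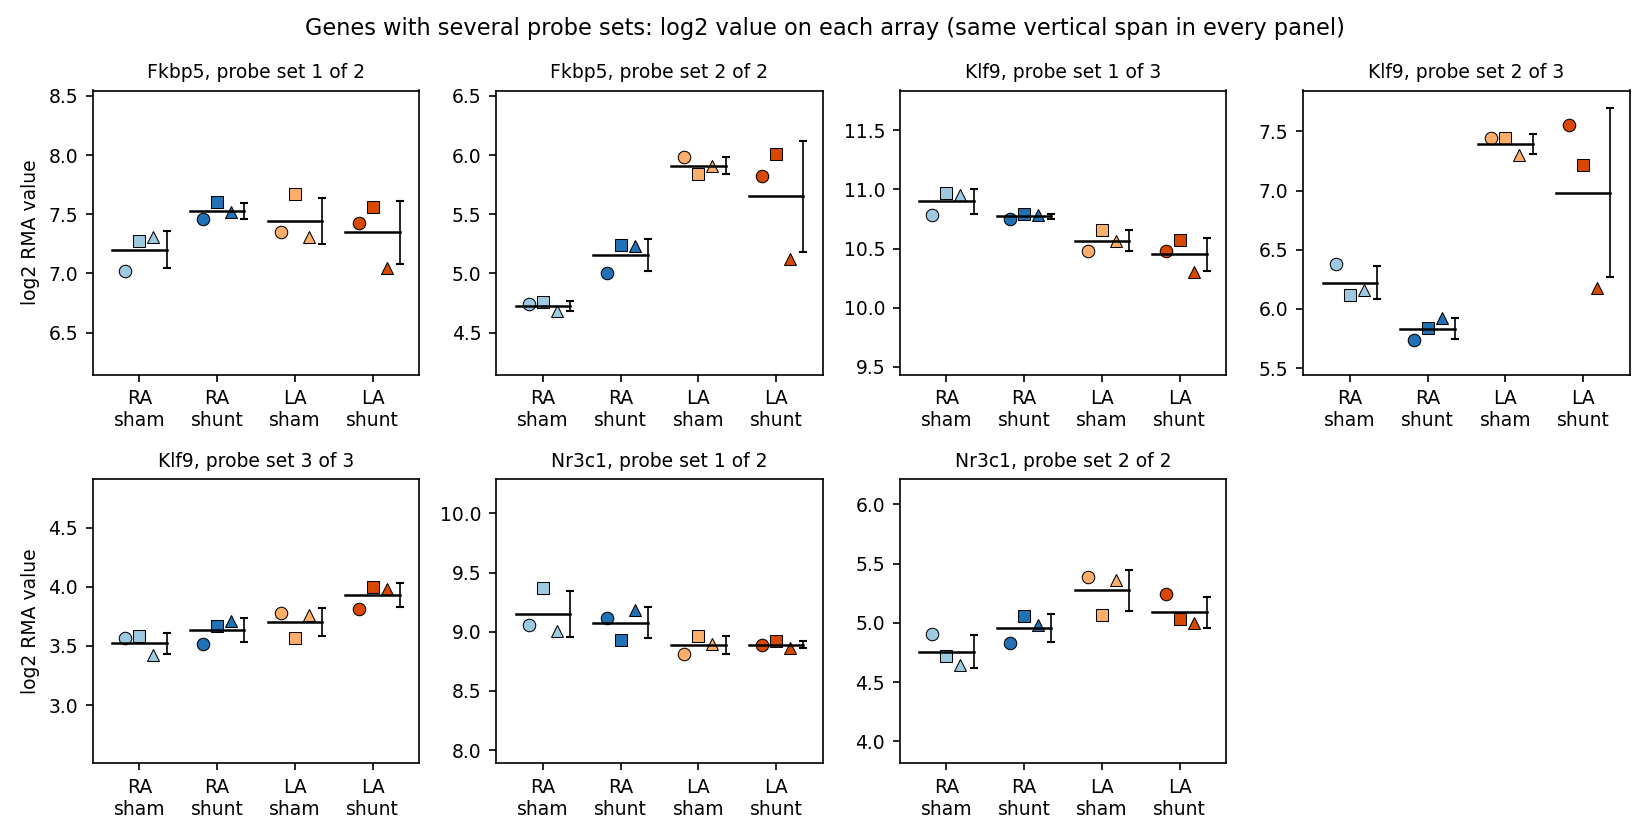
Log2 value on each array (vertical axis, the same span in each panel) for the genes with several probe sets, numbered from the brightest. Circles, squares and triangles are replicates 1, 2 and 3, bars are group means and whiskers 1 SD. The triangle of left atrium shunt lies apart at 6.18 for the second Klf9 probe set and at 5.12 for the second Fkbp5 probe set.

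The 3′ and 5′ control probe sets of beta-actin differed by 1.58 to 1.82 in right sham, 1.91 to 2.03 in right shunt, 1.31 on the left sham arrays and 1.14 to 1.39 on the left shunt arrays, on the log2 scale. This measure of RNA integrity moved with chamber and, in the right atrium, with the shunt, and its part in the results was not tested. The GAPDH controls moved with chamber too, at 0.32 to 0.40 on the right arrays and 0.18 to 0.28 on the left.

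A wider list of 46 genes raised by glucocorticoids in various tissues, 45 of them measured, was set beside the members. This list and the other wider lists were chosen with earlier results of these data known. Their counts are therefore given as descriptions. In the right atrium 2 rose (Per2 and Cdkn1a), 4 fell (Pdk4, Lpin1, Agt and Kcna5) and 39 did not pass. In the left none rose, 3 fell (Pdk4, Lpin1 and Ptgds) and 42 did not pass. The median difference was 0.04 in the right atrium and -0.09 in the left, beside 0.02 and -0.01 over all 14217 genes, of which 3.97% and 0.935% were called. With left shunt replicate 3 left out the list had 3 rises and 5 falls in the right, and 0 rises and 3 falls in the left with a median of -0.02. Averaged over both atria, Per2 rose and 6 fell (Pdk4, Lpin1, Kcna5, Agt, Cdkn1c and Cpt1a), against 4 rises and 8 falls without that array, and 5.25% of all genes were called.

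Pdk4 and Lpin1 fell in both atria. Pdk4 encodes a kinase that shuts down pyruvate dehydrogenase and so spares glucose. It read 9.46, 9.24 and 9.25 in right sham and 8.72, 8.85 and 8.89 in right shunt. In the left atrium it read 9.60, 9.63 and 9.58 in sham and 8.60, 8.52 and 8.73 in shunt. The difference was -0.49 ± 0.08 in the right (limma adjusted p = 0.0123), lost without right shunt replicates 1 or 2 (adjusted p up to 0.0533), and -0.99 ± 0.08 in the left (adjusted p = 0.000244), which passed in all alternatives.

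Lpin1, a phosphatidate phosphatase of lipid synthesis that also acts with regulators of fatty acid oxidation, read 9.77, 9.44 and 9.67 in right sham and 8.98, 8.91 and 8.94 in right shunt. Left atrium values were 9.70, 9.49 and 9.81 in sham and 8.92, 8.85 and 8.97 in shunt. No shunt array reached a sham array in either chamber. The difference was -0.68 ± 0.10 in the right (limma adjusted p = 0.00569) and -0.75 ± 0.10 in the left (adjusted p = 0.00457). Cpt1a, which admits fatty acids to mitochondria, differed by -0.29 ± 0.07 averaged over both atria (adjusted p = 0.0283), lost in 10 of 12 exclusions of an array.

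Kcna5 and Agt fell in the right atrium. Kcna5, a potassium channel gene characteristic of atrial muscle, read 5.95, 6.4 and 6.47 in sham and 5.18, 5.33 and 5.56 in shunt, a difference of -0.92 ± 0.14 (limma adjusted p = 0.00839). Its left values were 6.14, 6.51 and 6.23 in sham and 5.64, 5.74 and 5.51 in shunt (-0.66 ± 0.14, adjusted p = 0.0609). Agt, the precursor of angiotensin, differed by -0.92 ± 0.16 in the right (adjusted p = 0.0137), lost without right shunt replicate 2 or right sham replicates 1 or 3, and by -0.23 ± 0.16 in the left (adjusted p = 0.582). Ptgds, a prostaglandin D synthase, fell in the left by 0.94 ± 0.19 (adjusted p = 0.041), a call lost in 9 of 12 exclusions.

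Per2 and Cdkn1a rose in the right atrium. Per2, a clock gene, read 8.0, 8.32 and 7.99 in sham and 8.68, 8.78 and 8.92 in shunt, a rise of 0.69 ± 0.15 (limma adjusted p = 0.0285). Cdkn1a, a cell cycle inhibitor, read 6.68, 6.67 and 6.68 in sham and 7.08, 7.10 and 7.0 in shunt, a rise of 0.39 ± 0.08 (adjusted p = 0.0245). Each call was lost in 5 of 12 exclusions, Per2 without any right shunt array or right sham replicates 1 or 3, and Cdkn1a without right shunt replicates 1 or 2 or any right sham array. Averaged over both atria, Per2 rose by 0.57 ± 0.10 (adjusted p = 0.00918) and passed in all alternatives.

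Genes often used as glucocorticoid readouts were among those that did not pass. Per1 differed by -0.05 ± 0.15 in the right atrium and -0.15 ± 0.15 in the left (limma adjusted p = 0.893 and 0.726). Dusp1, a phosphatase of stress kinases, differed by 0.14 ± 0.09 and -0.05 ± 0.09, and Glul, glutamine synthetase, by 0.11 ± 0.10 and 0.02 ± 0.10. Pik3r1 had the largest positive values of the list, 0.84 ± 0.37 and 1.11 ± 0.37, and its adjusted p-values were 0.237 and 0.209.

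**Figure D5:**
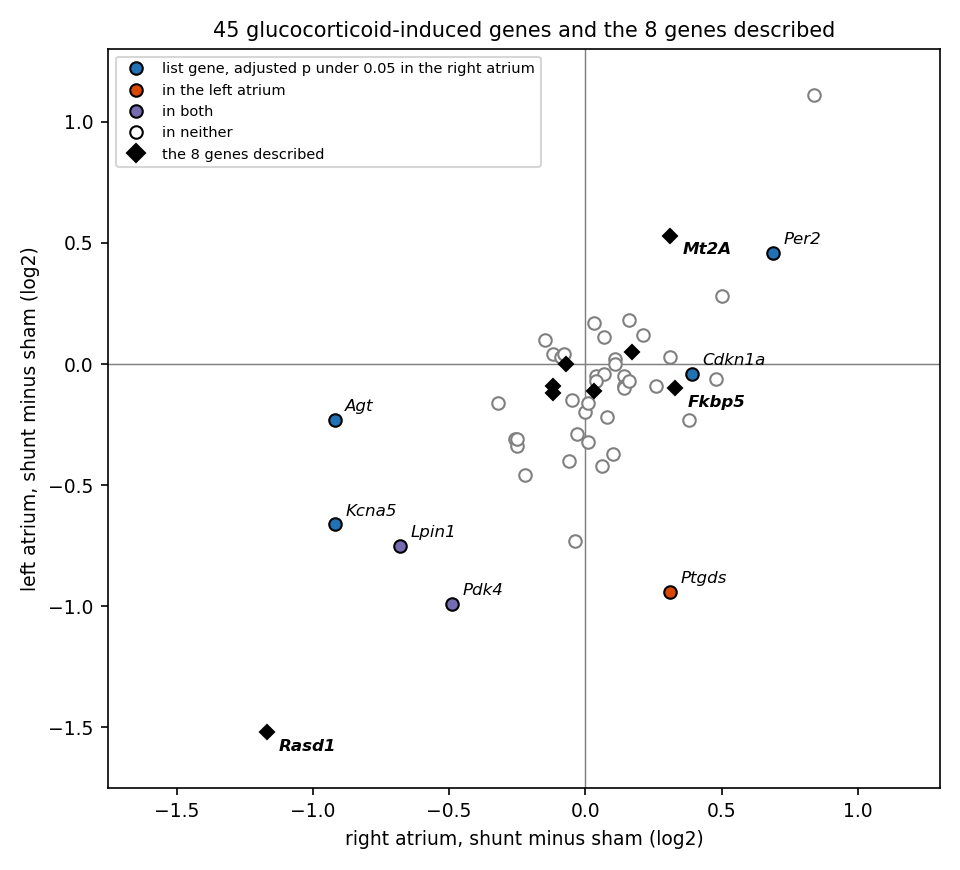
Shunt minus sham in the right atrium (horizontal axis, log2) against the left (vertical axis, log2) for 45 listed glucocorticoid-induced genes (circles) and the 8 measured members (diamonds). Filled circles passed the limma test, coloured by atrium. Pdk4 (-0.49 and -0.99) and Lpin1 (-0.68 and -0.75) lie with Rasd1 in the lower left corner, and most circles lie near the origin.

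Between the chambers, 17 of the 45 listed genes were higher in the left atrium of sham animals, 6 were lower and 22 did not pass. The list's median was 0.19, beside 0.04 over all 14217 genes. Of all genes 37.6% were called, 3161 higher and 2185 lower. Crispld2 was higher by 1.29 ± 0.09 (limma adjusted p = 8.34e-07), the water channel Aqp1 by 1.59 ± 0.10 (adjusted p = 7.25e-07) and Glul by 0.75 ± 0.10 (adjusted p = 0.000137). Agt was lower by 1.09 ± 0.16 (adjusted p = 0.00023). Of the 17, 12 passed with every array left out in turn, as did 5 of the 6. In shunt animals 10 of the listed genes were higher and 7 lower, with a median of 0.05. Over all genes the median was 0.04 and 40.5% were called, 2990 higher and 2761 lower.

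Immediate early genes, which respond within minutes to handling and to stress, were among several marker lists with higher values in left sham. Of 19 measured, 11 were higher in the left atrium of sham animals and none lower, with a median of 0.74. Of all 14217 genes, 3161 were higher and 2185 lower in that comparison. Their mean level on the left sham arrays was 6.96 to 7.69, against 6.46 to 6.71 on the arrays of the other groups, and the log2 of their summed level was 12.22 to 12.93 against 11.66 to 12.15. After shunt their median difference was -0.39 in the left and 0.07 in the right. Between the chambers of shunt animals it was 0.04, where Crispld2, Aqp1, Glul and Agt differed by 0.95, 1.35, 0.66 and -0.41. Endothelial markers were also higher in left sham for 4 of 8 and lower for 1 (median 0.21). Dusp1 (0.42 ± 0.09) and Per1 (0.47 ± 0.15), which were higher in left sham, respond to handling and stress too. The part of these marker lists in the values of the glucocorticoid list was not tested.

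Of the machinery around the receptor, 21 of 26 listed genes were measured. In the right atrium 1 passed, in the left none and for the average 1, beside 3.97%, 0.935% and 5.25% of all genes. Of the 21 differences, 13 were negative in the right atrium and 20 in the left. The share of negative differences over all genes was not counted, and their medians were 0.02 and -0.01. Fkbp4, whose product FKBP52 competes with FKBP51 for the receptor complex, was the gene that passed. It read 9.06, 9.03 and 9.26 in right sham and 8.80, 8.70 and 8.72 in right shunt, and 9.98, 9.78 and 9.88 in left sham against 9.39, 9.58 and 9.59 in left shunt. Averaged over both atria it fell by 0.37 ± 0.06 (limma adjusted p = 0.00647) and passed in all alternatives. In the right atrium alone the difference was -0.37 ± 0.09 (adjusted p = 0.0396), lost in 7 of 12 exclusions and with the replicate number as a block, and in the left -0.36 ± 0.09 (adjusted p = 0.087).

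The mineralocorticoid receptor Nr3c2, which also binds glucocorticoids, differed by -0.15 ± 0.09 in the right and -0.12 ± 0.09 in the left after shunt (limma adjusted p = 0.397 and 0.62). It was lower in the left atrium of sham animals by 0.50 ± 0.09 (adjusted p = 0.000911). The steroid-inactivating enzyme Hsd11b2 differed by -0.32 ± 0.16 and -0.05 ± 0.16 (adjusted p = 0.286 and 0.919), at levels between 4.36 and 5.24. Between chambers in sham, 7 of the 21 were higher in the left, among them Fkbp4 (0.76) and the phosphatase Ppp5c (1.01), and 5 were lower. Of all 14217 genes 37.6% were called, 3161 higher and 2185 lower. Without right sham replicate 2 or left sham replicate 1 the count of 5 became 3. The list's median was -0.03 in the right atrium and -0.11 in the left after shunt. Without left shunt replicate 3 the left median was -0.06.

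Of 20 genes listed as relatives and reported partners of Rasd1, 19 were measured. The list also took in the natriuretic peptide genes Nppa and Nppb, which encode hormones and not relatives of Rasd1. In the right atrium 1 gene rose and 1 fell, and in the left 1 rose, beside 3.97% and 0.935% of all genes called. Nppb, the B-type natriuretic peptide gene, rose in both atria. It read 12.93, 12.89 and 12.81 in right sham and 13.30, 13.34 and 13.26 in right shunt, and 12.90, 12.63 and 12.67 in left sham and 13.33, 13.37 and 13.30 in left shunt. All 6 shunt arrays were above all 6 sham arrays. The rise was 0.42 ± 0.08 in the right (limma adjusted p = 0.019; lost without right shunt replicates 1 or 2 or right sham replicates 2 or 3) and 0.60 ± 0.08 in the left (adjusted p = 0.00486). Nppa, the A-type peptide gene, lay at 14.37 to 14.43 on all arrays, at the top of the scale, where a difference could not be resolved.

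Rasd2, which encodes Rhes, the closest relative of Rasd1, read 5.93, 5.77 and 5.77 in right sham and 5.42, 5.37 and 5.44 in right shunt (-0.41 ± 0.09, limma adjusted p = 0.0372, lost in 9 of 12 exclusions). In the left atrium it read 5.65, 5.62 and 5.65 in sham and 6.02, 5.70 and 5.64 in shunt (0.15 ± 0.09, adjusted p = 0.53). The adaptor Nos1ap, reported to link Rasd1 to neuronal nitric oxide synthase, differed by -0.13 ± 0.11 and 0.31 ± 0.11 (adjusted p = 0.539 and 0.225). The other members of this list did not pass in a shunt comparison, and the list's medians were 0.01 and 0.05.

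Among 18 other members of the Sgk, Klf, Zbtb, Tsc22d and Fkbp families, 1 rose in the right atrium and none passed in the left. Over all genes 3.97% and 0.935% were called, so these counts are close to the background. Tsc22d1, a relative of Tsc22d3 that responds to TGF-beta, read 11.60, 11.80 and 11.81 in right sham and 12.19, 12.20 and 12.13 in right shunt, a rise of 0.44 ± 0.08 (limma adjusted p = 0.018). The call was lost without right shunt replicates 1 or 2 or right sham replicate 1, and as the mean of the gene's probe sets, where the difference was 0.09. Klf15, another Klf gene induced by glucocorticoids, differed by 0.16 ± 0.07 and -0.05 ± 0.07 (adjusted p = 0.232 and 0.799).

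The genes whose pattern over the 12 arrays was most like that of Rasd1 were chosen by Pearson correlation among 9346 genes with a mean above the median. The highest were Slc24a3 (0.95), Pdk4 (0.94), Ggh (0.93), H19 (0.93), Lpin1 (0.92) and Smo (0.91). Slc24a3, a sodium, potassium and calcium exchanger, had group means of 9.25 and 8.75 in right sham and shunt and 9.20 and 8.39 in left sham and shunt. The imprinted RNA H19 had 9.52, 8.68, 9.69 and 7.77 in the same order. The most opposite were Ltbp2 (-0.96), Ccn2 (-0.96), Ddit3 (-0.95) and Nppb (-0.95). The matrix genes Ltbp2 and Ccn2 had shunt differences of 1.2 and 0.98 in the right atrium and 1.48 and 0.92 in the left.

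These correlations come from arrays in 4 groups and rest mainly on the difference between sham and shunt arrays, for which Rasd1 was chosen. Within groups, on deviations from the group means, the correlation was 0.37 for Slc24a3, 0.15 for Pdk4, -0.31 for Lpin1, 0.56 for Ggh and -0.67 for Ccn2. The other members ran less like Rasd1 over the arrays, with 0.40 for Klf9, 0.34 for Tsc22d3, 0.16 for Sgk1, 0.14 for Nr3c1, -0.07 for Hsd11b1 and -0.15 for Fkbp5.

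Markers of other cells were set beside the shunt differences. Over all genes, 3.97% were called in the right atrium and 0.935% in the left. Macrophage markers were higher in the right shunt arrays (3 of 11 rose, 11 of 11 positive, median 0.42), with a mean level of 7.63 to 7.67 against 7.18 to 7.26 in right sham, and a log2 summed level of 11.74 to 11.87 against 11.27 to 11.28. In the left atrium their mean was 7.24, 7.28 and 6.71 in shunt and 6.82 to 6.97 in sham, so the shunt arrays other than replicate 3 lay above all sham arrays (0 of 11 rose, 9 of 11 positive, median 0.15). Ventricular muscle markers rose in the right for 4 of 7, with a log2 summed level of 12.41 to 13.69 against 11.78 to 11.89. Smooth muscle and pericyte markers were higher in the right shunt arrays (2 of 7 rose, 7 of 7 positive), with means of 7.50 to 7.61 against 7.11 to 7.31. Endothelial markers were positive there for 8 of 8, of which 1 rose, with means of 8.88 to 9.04 against 8.65 to 8.76. Neuronal and Schwann cell markers were higher in the left shunt arrays (2 of 7 rose, 7 of 7 positive, median 0.50). Their means were 4.66, 4.90 and 5.19 on replicates 1, 2 and 3, against 4.41 to 4.55 in left sham. The counts and median include replicate 3, which had the highest mean. The part of these markers in the Rasd1, Mt2A and list values was not tested.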

How the data were processed

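The values the authors deposited are log2 expression, with 1 value for each probe set on each array. The submitters' processing notes name RMA, a method that corrects background, quantile-normalizes arrays and summarises probes. Its version is not given in the sources used here. Array medians lay between 5.44 and 5.47, so a change shared by most transcripts is not visible, and values near the highest, 14.43, are compressed. Precision is limited by the number of arrays. Groups and replicate numbers come from the sample titles.

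Of 31099 probe sets, 57 controls were left out. The annotation gave 1 gene to 20826, several to 436 and none to 9780, covering 14217 genes. The probe set with the highest mean over 12 arrays stood for a gene, and the others are given beside it. With limma 3.58.1 in R 4.3.3, all 12 arrays entered a single model with a mean for each of 4 groups, and two-sided tests were adjusted by Benjamini-Hochberg over 31042 probe sets. Every adjusted p comes from that fit unless an alternative is named. The scripts were tested on simulated data.

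The members and wider lists were chosen with earlier results of these data known. The text names all members, the list genes past the threshold (examples between chambers), up to 6 others per list, and the 6 most and 4 least like Rasd1. Promoters are from RefSeq (GRCr8). Alternatives were a filter on dim probe sets, a further quantile normalization, subtraction of array medians, array weights, the trend and robust options of eBayes, a fit of the compared groups alone, a replicate block, the mean of a gene's probe sets, and each array left out.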

Additional observations from a re-analysis of the deposited data

Results flagged for a closer look

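For 6 probe sets, all shunt arrays of 1 atrium lay on one side of the sham mean and all shunt arrays of the other atrium lay on the opposite side. The difference between the atria was tested with the interaction term of the limma fit, and none passed. The dim Nr3c1 probe set differed by 0.20 in the right and -0.18 in the left, an interaction of -0.38 (adjusted p = 0.298). Ptgds differed by 0.31 and -0.94, an interaction of -1.25 (adjusted p = 0.141). Rasd2 differed by -0.41 and 0.15, an interaction of 0.56 (adjusted p = 0.145). Mt1 gave 0.10 and -0.37, an interaction of -0.47 (adjusted p = 0.206). Nos1ap gave -0.13 and 0.31, an interaction of 0.44 (adjusted p = 0.236). Aqp1 gave 0.14 and -0.10, an interaction of -0.24 (adjusted p = 0.474).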

How the results depend on the processing

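Each of the 12 probe sets of the members was followed in 6 comparisons, 72 results in all, of which 15 had an adjusted p under 0.05, counting 3 shunt differences of Rasd1 that carry no test in the text. Of these 15, 11 stayed under it in all alternatives run for them, whatever the direction, and 2 of the 15 reversed in direction. Rasd1 was chosen for its fall, so how its 3 differences fared is no support for them. Of the 57 that did not pass, 10 passed under at least 1 alternative and 21 changed sign under at least 1. The Klf9 chamber difference reversed when a gene's probe sets were averaged, to 0.34 in sham (adjusted p = 0.0173) and 0.38 in shunt (adjusted p = 0.01), because 2 of its 3 probe sets point the other way. Counts of probe sets called over the whole table moved more. With array weights they were 2352 in the right atrium, 370 in the left, 1867 for the average and 15 for the interaction. With only the groups compared they were 1415 in the right and 13 in the left. Without dim probe sets they were 453 in the left and 19 for the interaction, with trend and robust options 485 and 15, and with array medians subtracted 4 for the interaction. As means per gene, with fewer features tested, they were 5804 between the chambers in sham and 6249 in shunt. With each array left out in turn, the counts ran from 148 to 1631 in the right, 77 to 554 in the left, 672 to 2018 for the average, 9016 to 12309 between the chambers in sham, 8913 to 11578 in shunt and 0 to 21 for the interaction, where 0 came without right sham replicate 1. The highest count came without left shunt replicate 3 in each comparison but that between the chambers in shunt, where it came without left sham replicate 1. Other causes were not tested.

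With the replicate number as a block, the counts were 762 in the right atrium, 248 in the left, 1146 for the average, 10995 and 11461 between the chambers and 3 for the interaction. Right and left arrays with the same number and condition had residual correlations of 0.08 to 0.15, and each right array correlated best with the left array of its own number, a hint from the data and no part of the design. The block ended the call of Fkbp4 in the right atrium.

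These are 3 pools a group, so small differences in dim genes such as the third Klf9 probe set cannot be resolved. RMA values compress differences near the top of the scale. The other probe sets of a gene can read other transcript forms, which the files do not tell. Protein, hormone levels and receptor activity were not measured. Zbtb16 has no value here.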
